A study of Mus musculus with 12 samples.

Results

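Alveolar type 2 (AT2) cells without Atg5 were compared after bleomycin (BLM) and after phosphate-buffered saline (PBS). The comparison took 6 of the 12 RNA-seq libraries of the series, 3 Atg5-/- AT2-BLM and 3 Atg5-/- AT2-PBS, and the libraries were chosen by their genotype and treatment labels alone. All mice were C57BL/6, and every library was made from AT2 cells sorted from lung. Both groups lacked Atg5 through an Nkx2.1Cre;Atg5f/f cross, in which Cre is active throughout the lung epithelium from development on, so that airway cells and AT2 cells lose the gene together and uninjured cells have lacked it for the life of the mouse. BLM was given into the trachea at 2 U/kg with PBS as the control, and cells were isolated on day 14, although no day is given for the Atg5-/- AT2-PBS group in the sources used here. Mice in the BLM experiments were described as males of 8 to 12 weeks. Cells were sorted as EpCAM positive and negative for CD31, CD34, CD45, CD24 and Sca-1. The same comparison in wild-type cells, 3 AT2-BLM against 3 AT2-PBS libraries, is given beside it and shares no library with it. Nothing in the labels says whether the 3 libraries of a group came from separate mice, so the p-values measure the spread between these libraries.

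AT2 cells make and store pulmonary surfactant and serve as progenitors of the alveolar epithelium. After injury they can divide, pass through a keratin-rich transitional state and become the flat alveolar type 1 (AT1) cells through which gas is exchanged. Bleomycin breaks DNA, which activates the transcription factor p53 and its targets. ATG5 is part of the enzyme complex that attaches LC3 to the growing autophagosome membrane, and cells without it cannot complete canonical autophagy.

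The values are FPKM (fragments scaled to transcript length and to the mapped fragments of each library), and each change below is the difference of group means on the log2(FPKM + 1) scale, BLM minus PBS, with its standard error. The fit used limma across the 10675 of 21878 genes that reached 1 FPKM in at least 3 of the 12 libraries. A gene was called, and is said here to have risen or fallen, at an unadjusted p under 0.05 with a change of at least 1.4-fold, and the Benjamini-Hochberg adjusted p is given beside it. Relative depth, read from the lowest FPKM values, lay between 1.01 and 1.10 in the 6 libraries when the shallowest of the 12 was set to 1. Expression across genes correlated at r = 0.958 to 0.981 within Atg5-/- AT2-PBS, at 0.938 to 0.968 within Atg5-/- AT2-BLM and at 0.89 to 0.935 between the groups. Some gene models carry estimates that cannot be used: Sftpc, the most specific AT2 transcript, is listed at 0 in 11 of the 12 libraries, and Gapdh, which every cell expresses, was at 0.552, 0.849 and 0.790 FPKM in the PBS libraries and 0.759, 1.08 and 0.800 FPKM in the BLM libraries of Atg5-/- cells.

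The labels were checked first. Atg5 itself was at 9.24, 6.72 and 10.1 FPKM in replicates 1, 2 and 3 of the PBS group and at 8.84, 8.46 and 8.37 FPKM in those of the BLM group, against 12.5, 6.01 and 11.5 FPKM in wild-type PBS libraries. Values are given in this order throughout. A level summed over the whole gene does not check the deletion of part of it, so these values neither show nor contradict the genotype. The AT2 label was checked on surfactant transcripts: Sftpa1, which encodes surfactant protein A, was at 10202, 8099 and 10389.6 FPKM after PBS and 11980.4, 8753 and 10376 FPKM after BLM, and the sorting antigen gene Epcam was at 110.2, 109 and 102 FPKM with PBS and 113, 128 and 116 FPKM with BLM. Transcripts of the antigens used to remove other cells were present as well, and they differed between the groups. Cd24a was at 25.7, 35.8 and 27.8 FPKM after PBS and 7.51, 6.13 and 6.87 FPKM after BLM, and Ptprc, which encodes the leukocyte antigen CD45, was at 8.46, 7.54 and 8.01 FPKM with PBS and 0.833, 1.72 and 2.64 FPKM with BLM. Both fell, by 1.96 and 1.78 on the log2 scale (adjusted p = 0.00086 and 0.001). Ly6a, the Sca-1 gene, was high in 5 of the 6 libraries, at 636, 754 and 368 FPKM after PBS and 984, 515 and 63.1 FPKM after BLM, and was not called. The Y-linked genes also split the libraries. Eif2s3y was at 0.299, 0.530 and 0.397 FPKM after PBS and 0.128, 8.25 and 12.4 FPKM after BLM, so that of these 6 libraries only BLM replicates 2 and 3 carried Y-linked transcripts although males were described. The wild-type libraries split as well, with Eif2s3y at 0.0761, 8.98 and 8.29 FPKM after PBS and 0.0889, 0 and 13.1 FPKM after BLM.

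Transcripts of other cell types stood apart between the groups before any AT2 gene is considered. Summed over the list of 16 alveolar macrophage markers, the 3 PBS libraries held 1252, 1220.2 and 1625 FPKM and the 3 BLM libraries 71.7, 192 and 271 FPKM. The sums for 11 club cell markers were 49201, 85568 and 25567 FPKM after PBS and 1332, 2175 and 1810.2 FPKM after BLM. Those for 14 fibroblast markers were 392, 617 and 366 FPKM with PBS and 74.6, 100.3 and 126 FPKM with BLM, and those for 23 hepatocyte markers were 2294, 3989 and 3308 FPKM with PBS and 213, 1456 and 428 FPKM with BLM. In each of these lists every PBS library lay above every BLM library. The insulin gene Ins2 was at 1949, 2003 and 0 FPKM in the PBS replicates and at 0, 3.86 and 0.148 FPKM in the BLM replicates, so that PBS replicates 1 and 2 carried transcripts of the islet hormone and replicate 3 did not. The wild-type AT2-PBS libraries held 1976, 0 and 0 FPKM of Ins2. Summed over 12 islet markers the levels were 3369, 3448 and 133 FPKM with PBS and 9.24, 65.5 and 13.2 FPKM with BLM, and nearly all of the sum in PBS replicate 3 was Ttr, the transthyretin gene that liver also expresses, at 94.9, 177 and 133 FPKM in the PBS libraries. Over all 149 tested markers of cells other than alveolar epithelium, 105 fell and 2 rose. The rises were the endothelial gene Egfl7 (0.70 ± 0.18, adjusted p = 0.029) and the collagen gene Col6a2 (1.19 ± 0.44, adjusted p = 0.129). Col6a2 was not called without BLM replicates 2 or 3 (0.92 to 1.10). In bulk libraries fewer cells of a type and less RNA per cell cannot be told apart, and the part these transcripts play in the results below was not tested. The AT2 marker list itself summed to 68631, 66326 and 65904 FPKM after PBS and 72763, 69253 and 70122 FPKM after BLM.

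**Figure D1:**
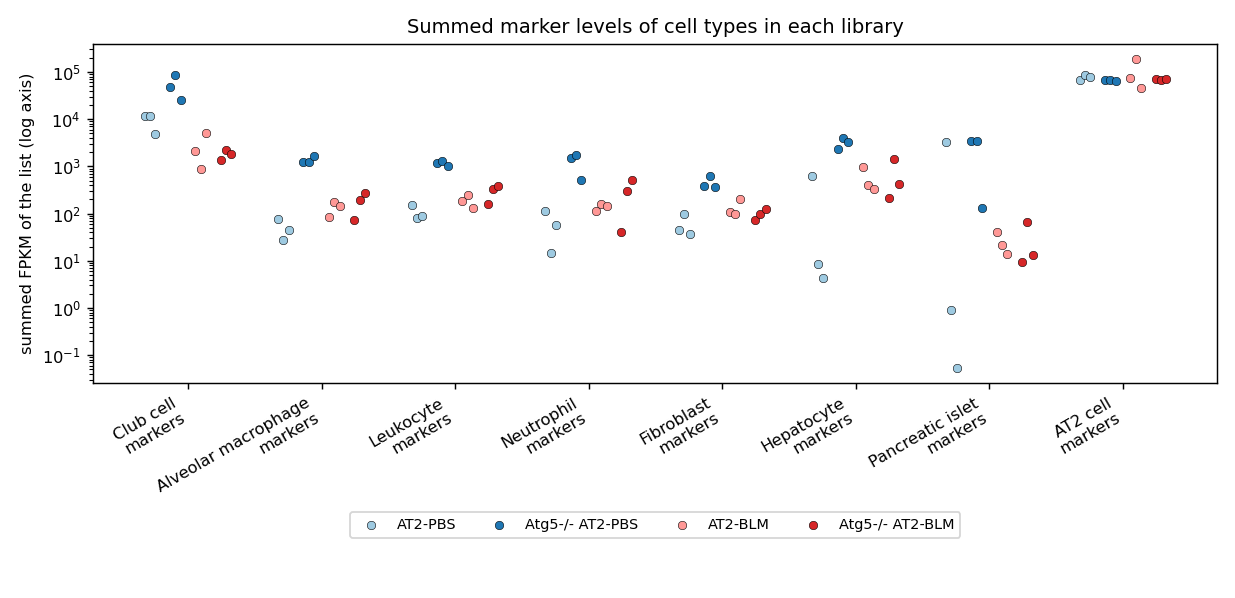
Summed FPKM of the marker genes of 8 cell types (log axis) in each of the 12 libraries, 1 point a library, coloured by group. The 3 Atg5-/- AT2-PBS libraries lie above the 3 Atg5-/- AT2-BLM libraries for club cell, alveolar macrophage, leukocyte, fibroblast, hepatocyte and islet markers, while the AT2 marker sums lie close together in these 6 libraries; the highest AT2 point, in AT2-BLM, holds the one Sftpc estimate above 0.

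Between the BLM and PBS libraries of Atg5-/- cells 1962 genes were called, 18.4% of those tested: 818 rose (7.66%) and 1144 fell (10.7%). The counts of each gene list below in Atg5-/- cells are to be set beside these shares. Wild-type counts of a list are to be set beside the wild-type shares. There 20.6% of all genes rose and 7.77% fell, at a median change of 0.17. The 2 Atg5-/- groups also differed in transcripts of other cells, and of their libraries only those of BLM carried Y-linked transcripts. Whether treatment, other cells or sex accounts for a call was not tested. At an adjusted p under 0.05, 926 genes passed (8.67%), of which 258 rose and 668 fell. That count was 532 without PBS replicate 2 and 584 without BLM replicate 3. The FPKM ranges of the 2 groups did not overlap in 2653 genes, 24.9% of those tested. The median change over all genes was 0.06. The balance of rises and falls depended on the scaling: quantile normalization gave 1148 rises and 1069 falls, and median-ratio scaling gave 604 rises and 1263 falls. Without PBS replicates 1 and 2, the libraries with islet hormone transcripts, 1458 genes were called and 237 passed the adjusted p. Without BLM replicates 2 and 3, those with Y-linked transcripts, 2011 were called and 503 passed the adjusted p.

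By the rule for naming, which asked for an adjusted p under 0.05, ranges that did not overlap and at least 10 FPKM, the 10 largest rises included Cdc20, Mfsd2a, Itm2a, Phgr1, Slc26a4, 2210011C24Rik, Ctps, Lrg1 and Tgm1. Cdc20 (chr4:118105506-118109957 in NCBIM37), which activates the ubiquitin ligase that ends mitosis, went from 8.66, 9.70 and 4.12 to 21.9, 79.8 and 34.2 FPKM, a change of 2.31 ± 0.42 (adjusted p = 0.0044). Mfsd2a, a transporter of lysophospholipids with omega-3 acyl chains, went from 11.9, 16.5 and 4.55 to 49.0, 45.2 and 52.4 FPKM (2.21 ± 0.55, adjusted p = 0.027). Slc26a4, the anion exchanger pendrin, went from 18.5, 22.6 and 4.65 to 55.9, 51.6 and 60.0 FPKM (2.04 ± 0.43, adjusted p = 0.011). In each of the 3 genes all BLM libraries lay above all PBS libraries, as the rule required, and PBS replicate 3 was the lowest of the 6. Ctps, the enzyme that makes CTP for nucleic acid and phospholipid synthesis, rose from 20.8, 17.3 and 12.1 to 63.3, 57.6 and 80.6 FPKM (1.96 ± 0.22, adjusted p = 0.00039). Lrg1, a secreted leucine-rich glycoprotein, rose from 1123, 938 and 581 to 2630.2, 3019 and 3547 FPKM (1.84 ± 0.32, adjusted p = 0.0038) and was the most abundant of these genes. Tgm1, a transglutaminase of stratified epithelia, rose by 1.69 ± 0.24. The point estimates of these genes were positive in wild-type cells too, from 0.80 for Mfsd2a, which was not called there, to 3.62 for Itm2a.

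The 10 largest falls were in Scgb3a1, Bpifb1, Reg3g, Scgb3a2, Scgb1a1, Ear1, Tnf, Ear2, Hcar2 and Dcn. Scgb1a1, the club cell secretoglobin, fell from 48354, 83587 and 22572 FPKM to 1049, 2101 and 1753 FPKM, a change of -4.84 ± 0.64 (adjusted p = 0.00073). Ear1, an eosinophil-associated ribonuclease of macrophages, fell from 51.8, 49.4 and 57.7 to 0.219, 1.42 and 1.53 FPKM (-4.78 ± 0.35, adjusted p = 2.6e-05). Dcn, the fibroblast proteoglycan decorin, fell from 57.1, 50.5 and 32.2 to 2.76, 1.78 and 1.67 FPKM (-3.93 ± 0.43, adjusted p = 0.00036). Scgb1a1, Ear1 and Dcn are markers of cells that the sort was meant to remove. That their highest BLM library lay below the lowest PBS library was required by the rule for naming. In wild-type cells Scgb1a1 also fell, from 11512, 11306 and 4776 to 2042, 811 and 4921 FPKM, whereas Ear1 and Dcn did not exceed 8.09 FPKM in any of the 6 wild-type libraries, where Ear1 fell by 0.95 and Dcn was not called. Krt79, a keratin that no list holds and that was picked by the test of the difference between genotypes, fell from 24.3, 22.3 and 30.6 to 0.960, 0.990 and 0.704 FPKM (-3.82 ± 0.25, adjusted p = 1e-05).

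Of 17 tested p53 targets, 6 rose and 1 fell, with a median change of 0.48 against 0.06 over all genes. In wild-type cells 14 rose, 0 fell and the median was 1.25, where 20.6% of all genes rose at a median of 0.17. Ccng1 (chr11:40562054-40568813 in NCBIM37), cyclin G1, went from 16.2, 22.9 and 21.3 to 64.2, 46.3 and 72.2 FPKM, a change of 1.54 ± 0.18 (adjusted p = 0.0004). Phlda3, an inhibitor of AKT at the membrane, went from 21.8, 27.6 and 14.8 to 44.6, 64.9 and 54.2 FPKM (1.33 ± 0.21, adjusted p = 0.0019). Aen, a nuclease of apoptotic cells, went from 4.78, 5.13 and 3.43 to 11.4, 10.2 and 15.3 FPKM (1.29 ± 0.18, adjusted p = 0.00088). The 3 genes separated the groups in every library. Their wild-type changes were 3.14, 4.84 and 2.61, and the difference of the BLM effect, Atg5-/- minus wild type, was -1.59 ± 0.25 for Ccng1 (adjusted p = 0.0036), -3.50 ± 0.29 for Phlda3 (0.00018) and -1.33 ± 0.25 for Aen (0.008). Phlda3 was at 3.95, 4.43 and 4.62 FPKM in AT2-PBS and 166, 135 and 155 FPKM in AT2-BLM, so that all 3 Atg5-/- libraries lay above the wild-type range after PBS and below it after BLM.

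Cdkn1a and Gdf15 were not called. Cdkn1a, which encodes the cyclin-dependent kinase inhibitor p21, was at 66.4, 99.5 and 73.5 FPKM after PBS and 107, 131 and 137 FPKM after BLM, a change of 0.65 ± 0.36 (adjusted p = 0.34). Its 3 BLM libraries lay above the 3 PBS libraries. In wild-type cells it went from 73.7, 18.7 and 30.6 to 303, 238 and 276 FPKM, and the difference of the effects was -2.27 ± 0.52 (adjusted p = 0.019). Gdf15, a secreted stress factor, was at 85.1, 137 and 72.9 FPKM after PBS and 87.6, 97.6 and 56.5 FPKM after BLM, with overlapping groups and a change of -0.27 ± 0.38, against 3.83 in wild type (difference -4.10 ± 0.54, adjusted p = 0.0018). Pmaip1, which encodes the BH3-only protein NOXA, fell from 5.39, 7.25 and 5.26 to 0, 0.313 and 0.611 FPKM (-2.43 ± 0.41, adjusted p = 0.0032). Fas, the death receptor, rose by 0.87 ± 0.25 (adjusted p = 0.049), with 2.51, 5.60 and 5.43 FPKM in the BLM libraries, the highest values being those of the replicates with Y-linked transcripts. In the 3 PBS libraries and the 1 BLM library without Y-linked transcripts the Fas change was 0.28 and no longer called, while those of Ccng1, Phlda3 and Aen were 1.64, 1.07 and 1.21 and stayed called.

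Among genes of the cell cycle the calls were all rises. Of 25 tested genes 14 rose and 0 fell, with a median change of 0.80, and in wild-type cells 21 rose with a median of 1.25. Plk1, the mitotic polo-like kinase, went from 2.76, 3.79 and 0.873 to 6.65, 12.3 and 8.05 FPKM (1.59 ± 0.37, adjusted p = 0.019). Ccnd1, cyclin D1, which opens the cycle in G1, went from 21.4, 26.2 and 14 to 71.4, 69.7 and 46.6 FPKM (1.58 ± 0.31, adjusted p = 0.008). Ccnb1, the cyclin of mitotic entry, went from 2.36, 2.81 and 0.893 to 5.01, 7.64 and 5.55 FPKM (1.27 ± 0.31, adjusted p = 0.025). PBS replicate 3 was the lowest library for all 3 genes, and BLM replicate 2 was the highest for Plk1 and Ccnb1. Smaller rises included Mcm2, a subunit of the replicative helicase, at 0.85 ± 0.25 (adjusted p = 0.056), and Rrm1, of ribonucleotide reductase, at 0.54 ± 0.20 (adjusted p = 0.13). Rrm1 lost its call without PBS replicate 3 or BLM replicates 2 or 3 (0.48 to 0.51) and with median-ratio scaling (0.47). No cell cycle gene of the list had a difference between genotypes at an adjusted p under 0.05; for Plk1 the difference was -0.24 ± 0.53 and for Ccnd1 -0.24 ± 0.44.

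The promoters of these 2 groups are shown for the genes that carried the largest or steadiest rises. They are RefSeq promoter windows of the GRCm38.p6 assembly, from 250 bases before to 50 after the annotated start, and they were searched on both strands for TTTGAA, a core of the cell cycle homology region that the DREAM complex binds, and for CCAAT, the box bound by NF-Y. Of the 22 cell cycle genes with a window, 10 held TTTGAA and 19 held CCAAT, against 20.2% and 41.1% of all 27025 genes in the table. The windows of Cdc20 (chr4:118437294-118437593, minus strand) and Plk1 (chr7:122159185-122159484, plus strand) are printed 5′ to 3′ with these letters in capitals on either strand:
Cdc20: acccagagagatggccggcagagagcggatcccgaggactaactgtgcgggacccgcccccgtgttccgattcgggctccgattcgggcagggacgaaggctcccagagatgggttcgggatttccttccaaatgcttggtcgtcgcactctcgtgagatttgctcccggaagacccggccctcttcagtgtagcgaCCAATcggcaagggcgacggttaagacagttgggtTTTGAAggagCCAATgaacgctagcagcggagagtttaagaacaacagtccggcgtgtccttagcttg
Plk1: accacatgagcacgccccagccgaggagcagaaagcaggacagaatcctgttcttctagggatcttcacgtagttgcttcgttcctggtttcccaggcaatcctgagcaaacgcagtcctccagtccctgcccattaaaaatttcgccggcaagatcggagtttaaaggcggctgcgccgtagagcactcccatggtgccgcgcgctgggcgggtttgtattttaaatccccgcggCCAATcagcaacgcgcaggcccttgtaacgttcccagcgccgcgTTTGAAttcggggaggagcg
A search for the p53 response element, a pair of adjacent consensus half-sites with the core C and G of both fixed and at most 1 mismatch, found it in the windows of 2 of 13 p53 targets, Ccng1 and Cdkn1a, and in 0.0814% of all genes. The window of Ccng1 (chr11:40755237-40755536, minus strand) has the element in capitals:
Ccng1: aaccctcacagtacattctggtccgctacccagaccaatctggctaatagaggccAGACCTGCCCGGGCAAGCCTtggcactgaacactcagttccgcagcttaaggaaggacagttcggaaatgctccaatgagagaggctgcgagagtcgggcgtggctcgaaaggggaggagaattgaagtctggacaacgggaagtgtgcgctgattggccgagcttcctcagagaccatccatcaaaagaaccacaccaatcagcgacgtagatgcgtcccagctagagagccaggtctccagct
A match of letters describes the window and is no measure of binding.

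**Figure D2:**
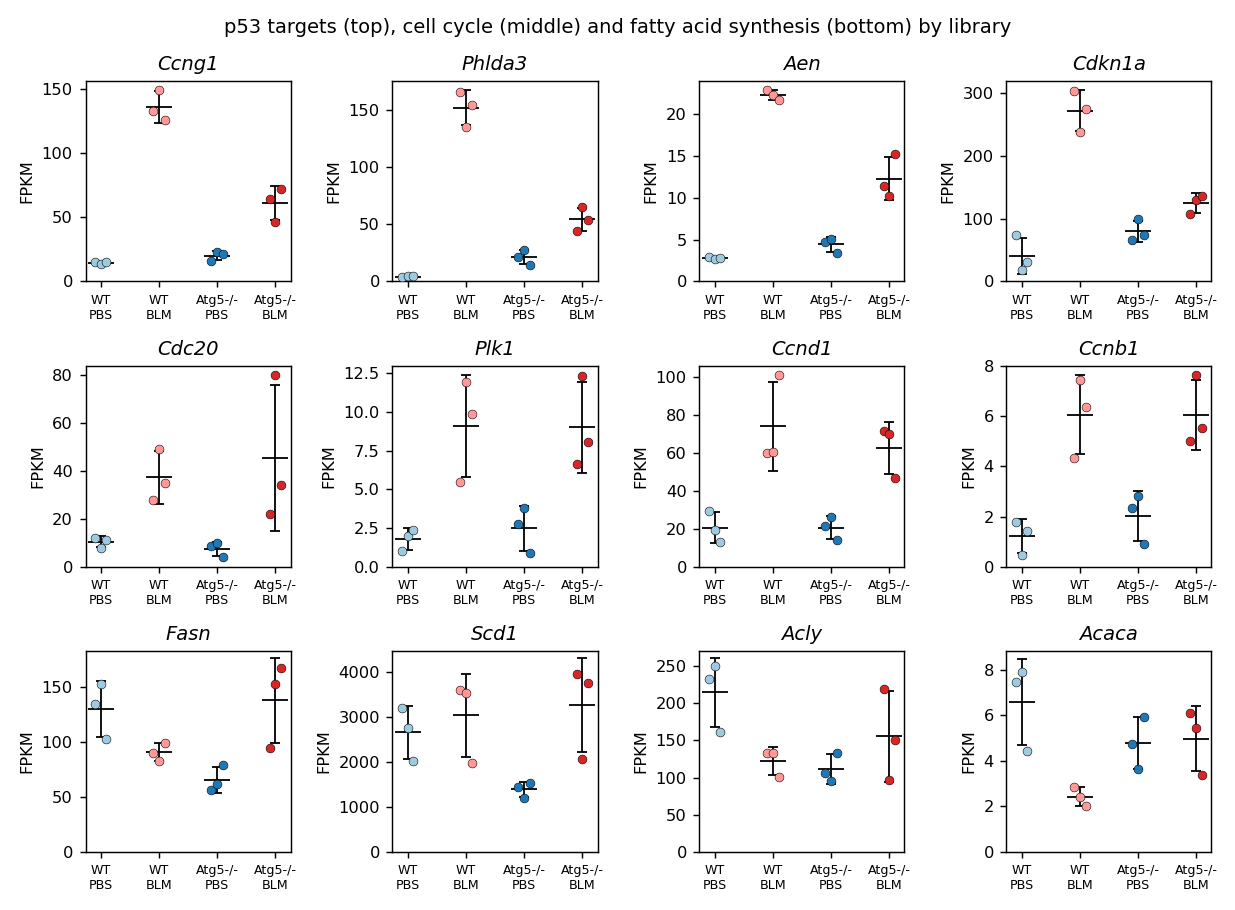
FPKM of 12 genes in the 12 libraries, 1 point a library, with the group mean and SD (n = 3). In the top row the p53 targets of Atg5-/- cells lie below wild type after BLM and, apart from Cdkn1a, above it after PBS. In the middle row the cell cycle genes reach similar levels in both genotypes. In the bottom row Fasn and Scd1 rise in Atg5-/- cells, where the BLM and PBS points of Acly and Acaca overlap. In wild-type cells Acly and Acaca fell and their points do not overlap.

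Of 16 tested genes of fatty acid synthesis and desaturation 7 rose and 1 fell, with a median change of 0.32, against 2 and 5 with a median of -0.30 in wild-type cells. Fasn (chr11:120667254-120685492 in NCBIM37), the fatty acid synthase, went from 56.4, 61.6 and 78.7 to 94.3, 152 and 167 FPKM, a change of 1.03 ± 0.22 (adjusted p = 0.013). Scd1, a stearoyl-CoA desaturase, went from 1438, 1203 and 1534 to 3965, 2054 and 3757 FPKM (1.18 ± 0.31, adjusted p = 0.033). The elongase gene Elovl1 went from 587, 529.9 and 454 to 878, 754 and 1058 FPKM (0.77 ± 0.18, adjusted p = 0.019). The BLM libraries of all 3 genes lay above the PBS libraries. Elovl5 (0.71 ± 0.13, adjusted p = 0.0058), Me1 (0.75 ± 0.23, adjusted p = 0.066), Fads3 (0.72 ± 0.22, adjusted p = 0.066) and Scd2 (0.59 ± 0.18, adjusted p = 0.059) rose as well. Scd2 lost its call without BLM replicate 3 (0.47). Thrsp, a regulator of lipogenesis, fell from 20.3, 27.9 and 19.5 to 4.72, 10.3 and 2.73 FPKM (-1.90 ± 0.46, adjusted p = 0.023). The upstream enzymes Acly and Acaca were not called: Acly, which makes cytosolic acetyl-CoA, was at 106, 95.0 and 133 FPKM after PBS and 219, 97.1 and 151 after BLM (0.42 ± 0.27), and Acaca, which makes malonyl-CoA, at 4.75, 3.65 and 5.94 FPKM with PBS and 6.12, 5.43 and 3.38 FPKM with BLM (0.04 ± 0.25). The desaturase genes Fads1 (0.07 ± 0.27) and Fads2 (0.12 ± 0.24) were not called either.

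Of the genes of this list only Fasn differed in its BLM effect between genotypes at an adjusted p under 0.05. In wild-type cells it was at 134, 153 and 102 FPKM after PBS and 90.2, 82.8 and 99.5 FPKM after BLM, where it fell by 0.50, just past the fold threshold, and the difference of the effects was 1.53 ± 0.32 (adjusted p = 0.013). The Atg5-/- AT2-PBS libraries, at 56.4, 61.6 and 78.7 FPKM, lay below all 3 AT2-PBS libraries. In the Atg5-/- libraries without Y-linked transcripts the Fasn change was 0.53 and not called. The median change was 0.26 over 20 cholesterol synthesis genes. Of 18 fatty acid oxidation genes 1 rose, against 7.66% over all genes, and their median change was 0.05. The rise was in Cpt2, of the carnitine shuttle (0.54 ± 0.21, adjusted p = 0.16), which lost its call without PBS replicates 1 or 2 or BLM replicates 1 or 3 (0.48 to 0.51).

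Glycolytic and pentose phosphate genes are to be set beside all genes, of which 7.66% rose and 10.7% fell. By the KEGG pathway annotation of the table, 5 of 50 tested genes of glycolysis and gluconeogenesis rose and 10 fell. Of 24 in the pentose phosphate pathway 3 rose and 4 fell. In the shorter lists used below, of 17 glycolytic genes 1 rose and 2 fell, at a median of -0.04. In wild-type cells 9 of these rose and 2 fell at a median of 0.58. Eno1, enolase, was at 101, 107 and 72.8 FPKM after PBS and 36.1, 105 and 109 FPKM after BLM (-0.30 ± 0.44, not called), with BLM replicate 1 the lowest of the 6 libraries. In wild-type cells it went from 57.1, 26.9 and 30.7 to 122, 144 and 301 FPKM, and the difference of the effects was -2.54 ± 0.63 (adjusted p = 0.029). The change was 0.13 ± 0.18 for Pgam1 and -0.13 ± 0.17 for Aldoa, both with overlapping groups. Hk1, the hexokinase that commits glucose, rose from 5.42, 8.39 and 7.08 to 15.4, 11.8 and 17.4 FPKM (1.00 ± 0.21, adjusted p = 0.012), and Slc16a3, a lactate exporter that leukocytes also use, fell from 12.2, 10.8 and 6.94 to 0.253, 1.44 and 1.26 FPKM (-2.49 ± 0.31, adjusted p = 0.00055). The other fall was in Pfkp, a phosphofructokinase (-0.88 ± 0.31, adjusted p = 0.10). Of 7 pentose phosphate genes, H6pd alone rose (0.58 ± 0.19, adjusted p = 0.082), and not without PBS replicate 2 or BLM replicate 3 (0.45). G6pdx, the entry enzyme of the pathway, was at 41.6, 38.7 and 39.6 FPKM after PBS and 45.2, 30 and 51.3 FPKM after BLM (0.04 ± 0.21). Of 32 respiratory chain genes none was called by the limma fit, at a median of 0.06; 0 of them had an unadjusted p under 0.05.

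Of 31 tested NRF2 targets and glutathione genes 1 rose and 6 fell, at a median of -0.10; in wild-type cells 23 rose and 1 fell at a median of 0.89. Those that fell were the glutathione transferase genes Gsto1, Gstm1, Gsta3, Gstm2 and Gstp1, and Ugdh, which makes UDP-glucuronate and lost its call without PBS replicates 1 or 3 or BLM replicates 2 or 3 (-0.36 to -0.50). Gstm1 was at 447, 430.4 and 345 FPKM after PBS and 174, 104 and 104 FPKM after BLM (-1.70 ± 0.22, adjusted p = 0.00072). Gsta3 was at 77.9, 92.6 and 69.4 FPKM with PBS and 36.7, 45.9 and 37.4 FPKM with BLM (-0.98 ± 0.17, adjusted p = 0.0039). The groups were separate in both genes, and the BLM levels of Gstm1 overlapped those of the wild-type libraries, at 156, 155 and 141 FPKM after PBS and 159.8, 114 and 183 FPKM after BLM. The difference of the effects was -1.69 ± 0.31 for Gstm1 (adjusted p = 0.0075) and -2.22 ± 0.24 for Gsta3 (adjusted p = 0.00082). Nfe2l2, which encodes NRF2 itself, was the gene that rose (0.65 ± 0.27, adjusted p = 0.18), and it lost its call without PBS replicates 1 or 2 or BLM replicates 2 or 3 (0.50 to 0.65).

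Of 23 tested AT2 markers 8 rose and 0 fell, at a median of 0.40, and in wild-type cells 2 rose and 8 fell at a median of -0.33. Il33, an alarmin held in AT2 nuclei, went from 232, 132 and 194 to 595, 389.8 and 594 FPKM (1.51 ± 0.40, adjusted p = 0.035). Cxcl15, the lung chemokine lungkine, went from 834, 699.8 and 927 to 1075, 1366 and 1284 FPKM (0.60 ± 0.18, adjusted p = 0.058). Surfactant protein genes were not called, with changes of 0.11 ± 0.31 for Sftpa1 and -0.15 ± 0.56 for Sftpb, nor was Abca3, the lamellar body lipid pump, at 90.9, 77.4 and 105 FPKM with PBS and 114, 122 and 140.2 FPKM with BLM (0.47 ± 0.19), just under the fold threshold with separate groups. Of 15 AT1 markers 9 rose and 0 fell, at a median of 0.68 against 0.79 in wild type. Ager, the AT1 receptor RAGE, was at 1089.7, 1163 and 974 FPKM after PBS and 1474, 1636 and 1589.9 FPKM after BLM (0.54 ± 0.16, adjusted p = 0.058). Ager was not called without PBS replicate 3 (0.48), with quantile normalization (0.46) or with median-ratio scaling (0.47). Emp2, a membrane protein of AT1 cells, was at 109.7, 97.3 and 97.5 FPKM with PBS and 181, 151 and 217 FPKM with BLM (0.83 ± 0.21, adjusted p = 0.03). Vegfa, the endothelial growth factor, was at 9.84, 12.7 and 8.14 FPKM with PBS and 21.3, 17.5 and 20.9 FPKM with BLM (0.91 ± 0.23, adjusted p = 0.03). Pdpn, podoplanin, rose by 1.00 ± 0.46 (adjusted p = 0.22) against 3.26 ± 0.46 in wild type, a call lost without PBS replicates 1 or 3 or BLM replicates 2 or 3 (0.68 to 1.11).

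Of 23 tested markers of the transitional state 6 rose and 3 fell, at a median of 0.39, against 16 and 0 at a median of 1.47 in wild type. Without BLM replicates 2 and 3, the libraries with Y-linked transcripts, the median of the list was -0.07. Clu, the chaperone clusterin, rose from 256, 243 and 234 to 552, 563.6 and 540.2 FPKM (1.17 ± 0.32, adjusted p = 0.044). Krt8, the keratin that gives the state its name, was at 215, 248 and 163 FPKM after PBS and 255, 480.3 and 478 FPKM after BLM (0.91 ± 0.34, adjusted p = 0.13), and Krt7 at 89.9, 93.5 and 79.6 FPKM with PBS and 116, 241 and 234 FPKM with BLM (1.09 ± 0.34, adjusted p = 0.072). For both keratins BLM replicates 2 and 3 stood well above replicate 1, and without these 2 the changes were 0.31 and 0.41, neither called; Krt8 also lost its call without PBS replicate 3 or BLM replicates 2 or 3 (0.75 to 0.76). Plaur, the urokinase receptor, which macrophages also express, fell from 59.8, 52.6 and 55.2 to 3.19, 9.18 and 7.42 FPKM (-3.00 ± 0.52, adjusted p = 0.0037), while in wild-type cells it rose by 2.94 ± 0.52. The integrin subunit gene Itgb6, whose product activates TGF-beta, rose from 2.24, 3.05 and 2.81 to 6.46, 6.70 and 6.06 FPKM (1.01 ± 0.23, adjusted p = 0.016). It was the single rise among 16 TGF-beta pathway genes, where 7.66% of all genes rose and 10.7% fell. Of the same genes Tgfbi (-1.08 ± 0.29, adjusted p = 0.038) and Skil (-0.86 ± 0.35, adjusted p = 0.18) fell, the latter not without PBS replicates 1, 2 or 3 or BLM replicates 2 or 3 (-0.73 to -0.89).

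Of 19 junction and adhesion genes 6 rose and 0 fell, at a median of 0.46. Over all genes 7.66% rose and 10.7% fell, the shares to set beside each list of this paragraph. Cgn, the tight junction protein cingulin, was at 9.40, 8.89 and 10.7 FPKM after PBS and 21.1, 15.2 and 16.6 FPKM after BLM (0.80 ± 0.22, adjusted p = 0.043). Of 12 fluid transport genes 4 rose, among them the sodium channel subunits Scnn1g (1.09 ± 0.41) and Scnn1b (0.93 ± 0.41), at adjusted p = 0.14 and 0.21. Scnn1g lost its call without PBS replicate 3 or BLM replicate 3 (0.78 to 0.83), and Scnn1b without PBS replicates 1 or 3 or BLM replicates 1 or 3 (0.60 to 1.02). The water channel Aqp1, in lung mainly a gene of endothelial cells, fell (-1.45 ± 0.36, adjusted p = 0.027). Of 20 lineage transcription factors 7 rose and 0 fell, at a median of 0.15, with 0 at an adjusted p under 0.05. Nkx2-1, which specifies lung epithelium, was at 43.7, 29.7 and 66.8 FPKM after PBS and 78.0, 65.5 and 75.4 FPKM after BLM (0.70 ± 0.24, adjusted p = 0.095), so that PBS replicate 3 lay within the BLM range, and the call was lost without PBS replicate 2 (0.42). Foxa2, its partner in surfactant gene control, rose by 0.82 ± 0.24 (adjusted p = 0.057). Without PBS replicates 1 and 2, the libraries with islet hormone transcripts, the changes of Nkx2-1 and Foxa2 were 0.12 and 0.38 and not called.

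Of 18 tested immediate early genes, which respond to stimulation without new protein synthesis, 10 fell and 1 rose, at a median of -1.23, close to the -1.11 of wild-type cells. Egr1, a zinc finger factor induced within minutes of stimulation, was at 162, 415 and 119 FPKM after PBS and 58.4, 17.7 and 17.7 FPKM after BLM (-2.87 ± 0.77, adjusted p = 0.038). Fosb, of the AP-1 family, was at 15.4, 42.9 and 25.6 FPKM with PBS and 2.77, 2.59 and 2.63 FPKM with BLM (-2.87 ± 0.63, adjusted p = 0.014). PBS replicate 2 was the highest library for both genes. The single rise was Socs3, the feedback inhibitor of STAT3 signalling, from 19.8, 32.0 and 26 to 71.8, 51.0 and 71.6 FPKM (1.29 ± 0.27, adjusted p = 0.011). Of 25 unfolded protein response genes 5 fell and 1 rose, where 10.7% of all genes fell and 7.66% rose. The rise was the ER chaperone gene Hyou1 (0.56 ± 0.26, adjusted p = 0.225). Hyou1 was not called without PBS replicates 1 or 2 or BLM replicates 2 or 3 (0.40 to 0.59). Atf4, the main effector of the integrated stress response, was at 90.5, 145 and 82.1 FPKM after PBS and 57.9, 54.8 and 41.4 FPKM after BLM (-1.0 ± 0.25, adjusted p = 0.028), and Herpud1, a component of ER-associated degradation, at 245, 229.6 and 315 FPKM with PBS and 152, 125 and 124 FPKM with BLM (-0.97 ± 0.21, adjusted p = 0.014).

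**Figure D3:**
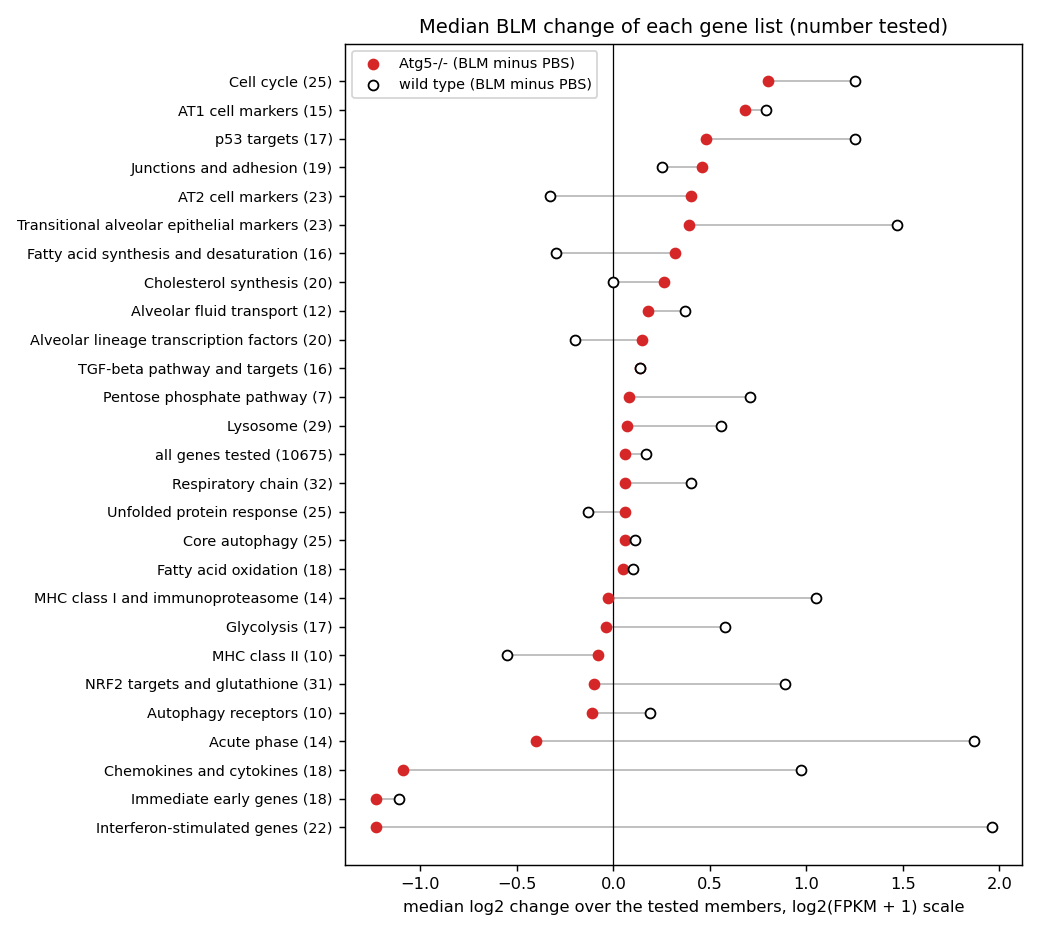
Median log2 change from PBS to BLM over the tested members of each gene list, in Atg5-/- cells (filled) and wild-type cells (open), with the number of genes tested in brackets. Interferon-stimulated, chemokine and acute phase lists lie on opposite sides of 0 in the 2 genotypes, and cell cycle, AT1 and p53 lists lie above 0 in both.

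Markers of other cell types were read list by list. Of 10 tested club cell markers 9 fell, at a median of -3.95, and of 8 ciliated cell markers 7 fell, at a median of -1.12. Of 10 fibroblast markers 8 fell and 1 rose, of 22 hepatocyte markers 18 fell and of 10 lymphocyte markers 9 fell. At an adjusted p under 0.05, 7 fibroblast, 1 hepatocyte and 5 lymphocyte markers were lower. Col1a2, of fibrillar collagen, was at 10.7, 13.9 and 19.6 FPKM after PBS and 0.411, 2.07 and 3.04 FPKM after BLM (-2.56 ± 0.56, adjusted p = 0.014). Cd2, of T and NK cells, was at 32.1, 28.8 and 25.5 FPKM with PBS and 1.44, 2.15 and 1.55 FPKM with BLM (-3.46 ± 0.34, adjusted p = 0.00018). Every PBS library of both genes lay above every BLM library. Endothelial markers had 1 rise and 1 fall among 7, where 7.66% of all genes rose and 10.7% fell. The 14 acinar and 5 erythroid markers had no call by the limma fit, with 0 and 0 at an unadjusted p under 0.05.

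Of 16 tested leukocyte markers 15 fell, at a median of -2.04, and of 16 alveolar macrophage markers 16 fell, at a median of -2.12. Of 18 chemokines and cytokines 10 fell and 1 rose. Tnf was at 37.5, 38.4 and 9.58 FPKM after PBS and 0.334, 0 and 0.247 FPKM after BLM (-4.41 ± 0.51, adjusted p = 0.0004), and Il1b at 38.3, 36.1 and 30.5 FPKM with PBS and 0.910, 3.88 and 9.46 FPKM with BLM (-2.96 ± 0.52, adjusted p = 0.0039). Both are cytokines that macrophages make in quantity, and both sets of libraries were separate. The rise was Cxcl17, a mucosal chemokine of epithelium, from 77.1, 90.7 and 67.6 to 128, 210.5 and 186 FPKM (1.12 ± 0.33, adjusted p = 0.056). Among 14 acute phase genes 2 rose and 5 fell, where 7.66% of all genes rose and 10.7% fell. Lcn2, the siderophore-binding lipocalin that injured epithelium secretes, went from 1448, 1037 and 801 to 1787, 4427 and 4326 FPKM (1.61 ± 0.44, adjusted p = 0.04), and Cfb, complement factor B, from 31.1, 31.7 and 19.3 to 9.59, 11.5 and 7.73 FPKM (-1.40 ± 0.38, adjusted p = 0.038). The other acute phase rise was Lbp, which binds lipopolysaccharide (0.67 ± 0.25, adjusted p = 0.14), which was not called without BLM replicate 3 (0.49). In wild-type cells Lcn2 and Cfb both rose, by 3.42 ± 0.44 and 3.47 ± 0.38. Without Atg5-/- BLM replicates 2 and 3, the libraries with Y-linked transcripts, the Atg5-/- changes of Cxcl17 and Lcn2 were 0.71 and 0.75, against 1.12 and 1.61 with them.

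Of 22 tested interferon-stimulated genes 10 fell and 0 rose, at a median of -1.23, against 19 rises at a median of 1.96 in wild type. Isg15, a ubiquitin-like modifier, was at 151, 202 and 11.4 FPKM after PBS and 23.8, 23.4 and 12.0 FPKM after BLM (-1.87 ± 0.84, adjusted p = 0.21). Ifit3, an antiviral RNA-binding protein, was at 22.7, 42.0 and 1.16 FPKM with PBS and 1.16, 1.37 and 1.21 FPKM with BLM (-2.54 ± 0.78, adjusted p = 0.068). PBS replicates 1 and 2 were high and replicate 3 lay within the BLM range or next to it. With replicate 3 as the single PBS library the changes turned to 0.68 for Isg15 and 0.06 for Ifit3, neither called, and the median of the list to 0.39. Isg15 also lost its call without PBS replicates 1 or 2 or BLM replicates 1, 2 or 3 (-1.13 to -2.02). MHC class I and immunoproteasome genes, 14 tested, had no call by the limma fit at a median of -0.03, with 0 at an unadjusted p under 0.05; B2m was at 3219, 2457 and 1161 FPKM with PBS and 3446, 1669.5 and 1549 FPKM with BLM. Of 10 MHC class II genes 2 fell, where 10.7% of all genes fell. They were Ctss, the protease of antigen loading (-2.27 ± 0.70, adjusted p = 0.069), and H2-Oa (-0.60 ± 0.23, adjusted p = 0.145). H2-Oa was not called without PBS replicate 3 or BLM replicate 1 (-0.36 to -0.51).

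None of 25 core autophagy genes was called by the limma fit, at a median of 0.06, and 0 had an unadjusted p under 0.05; in wild-type cells 2 rose and 0 fell. Gabarap and Map1lc3a, of the family that is attached to autophagosome membranes, had changes of 0.02 ± 0.17 and 0.21 ± 0.14. Sqstm1, the receptor p62, was at 392, 512 and 357 FPKM after PBS and 385, 355 and 398 FPKM after BLM (-0.13 ± 0.26). Ncoa4, the receptor that carries ferritin to autophagosomes, was the single receptor gene to fall, from 5.14, 6.28 and 5.88 to 1.54, 2.31 and 1.92 FPKM (-1.21 ± 0.23, adjusted p = 0.0067). Of 29 lysosomal genes 2 rose and 6 fell, where 7.66% of all genes rose and 10.7% fell. Lipa, the acid lipase, was at 21.4, 16.7 and 15.7 FPKM after PBS and 0.866, 4.54 and 5.29 FPKM after BLM (-2.22 ± 0.41, adjusted p = 0.0053), and Ctsd, cathepsin D, at 387, 383 and 396 FPKM with PBS and 188, 249 and 296 FPKM with BLM (-0.69 ± 0.17, adjusted p = 0.027). Lipa and Ctss, the latter at 243, 287 and 263 FPKM with PBS and 14.5, 109 and 95.2 FPKM with BLM, are abundant in macrophages. Npc2, a lysosomal sterol carrier, rose (0.56 ± 0.18, adjusted p = 0.08) with Ctsh, cathepsin H, which processes surfactant protein B (0.79 ± 0.35, adjusted p = 0.216). Npc2 was not called without BLM replicate 2 (0.48), and Ctsh was not called without PBS replicates 1, 2 or 3 or BLM replicates 2 or 3 (0.68 to 0.82).

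The calls were then set beside those of wild-type cells. Of the 818 genes that rose in Atg5-/- cells 437 rose in wild type as well, 53.4% of the Atg5-/- rises, where 20.6% of all genes rose in wild type. They were 19.8% of the wild-type rises, where 7.66% of all genes rose in Atg5-/- cells. Of the 1144 that fell 132 fell in wild type, 11.5% of the Atg5-/- falls, where 7.77% of all genes fell in wild type. They were 15.9% of the wild-type falls, where 10.7% of all genes fell in Atg5-/- cells. A further 249 genes fell in Atg5-/- cells and rose in wild type, 21.8% of the Atg5-/- falls and 11.3% of the wild-type rises, which is near the 20.6% of all genes that rose in wild type and the 10.7% that fell in Atg5-/- cells. The 7 genes that did the reverse were 0.9% of the Atg5-/- rises and 0.8% of the wild-type falls. Over all genes 7.77% fell in wild type and 7.66% rose in Atg5-/- cells. Across all tested genes the 2 sets of changes correlated at r = 0.074, a description over genes that are not independent.

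The test of the difference between the effects called 2156 genes, 20.2% of those tested, and 842 (7.89%) at an adjusted p under 0.05, or 537 without Atg5-/- AT2-PBS replicate 2. Without AT2-PBS replicate 1, the wild-type library with Ins2, 2266 were called and 912 passed the adjusted p, and with the Y-linked level as a covariate 2472 were called and 825 passed. Of the 2156, 536 had the higher effect in Atg5-/- cells and 1620 the lower one, while quantile normalization gave 1362 and 1123 and median-ratio scaling 773 and 1463. Chia1, an acidic chitinase of AT2 cells, was at 428, 334 and 234 FPKM after PBS and 338, 383 and 258 FPKM after BLM, against 738, 1182 and 598 FPKM with PBS and 223, 169.6 and 162 FPKM with BLM in wild type, a difference of 2.13 ± 0.39 (adjusted p = 0.0074). Met, the receptor of hepatocyte growth factor, was at 10.7, 8.59 and 12.0 FPKM with PBS and 20.5, 9.28 and 11.3 FPKM with BLM, against 22.2, 23.4 and 12.5 FPKM with PBS and 5.37, 5.02 and 3.94 FPKM with BLM in wild type (2.08 ± 0.41, adjusted p = 0.0099). Bcan, the proteoglycan brevican, was at 2.54, 3.61 and 3.18 FPKM with PBS and 4.71, 2.78 and 3.51 FPKM with BLM, against 9.36, 10.1 and 10.9 FPKM with PBS and 1.04, 1.05 and 0.925 FPKM with BLM in wild type (2.64 ± 0.26, adjusted p = 0.00062). Among those with the lower effect, Nkx2-9, a homeobox gene, was already at 40.4, 34.8 and 35.7 FPKM after PBS in Atg5-/- cells and at 56.5, 29.5 and 22.1 FPKM after BLM, whereas in wild type it went from 0.243, 0.378 and 0.816 to 52.4, 43.5 and 21.7 FPKM (-4.84 ± 0.49, adjusted p = 0.00062).

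**Figure D4:**
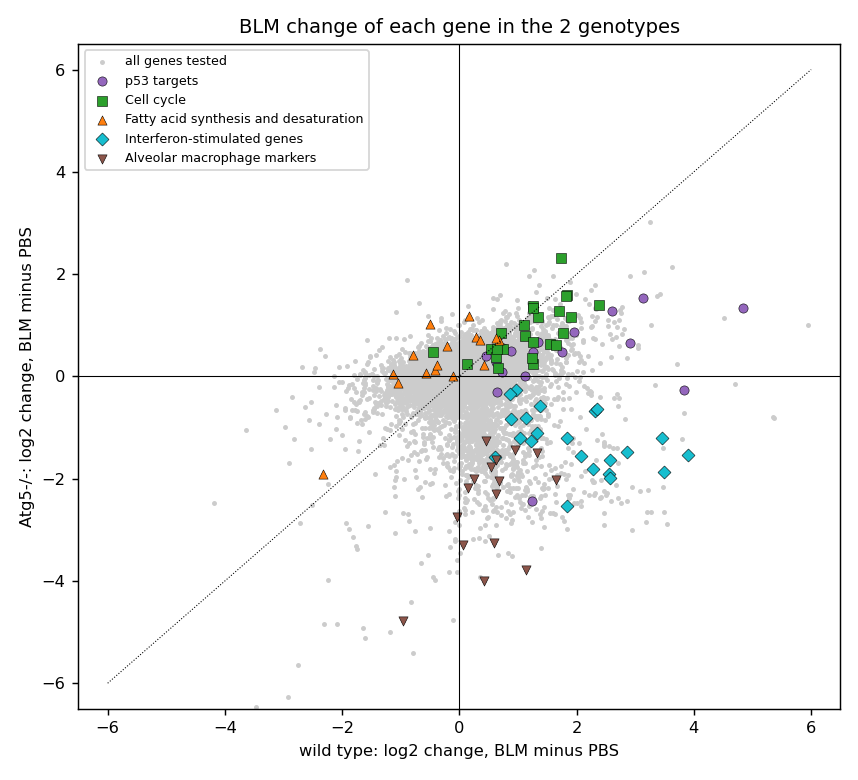
Change from PBS to BLM of each tested gene in Atg5-/- cells (vertical axis) against wild-type cells (horizontal axis), both in log2, with members of 5 lists marked and a dotted line of equal change. Most cell cycle genes and p53 targets lie above 0 on both axes, the p53 targets mostly under the line, and interferon-stimulated genes and alveolar macrophage markers lie below 0 on the vertical axis.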

How the data were processed

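The mRNA of sorted AT2 cells was sequenced from 12 libraries in 4 groups of 3. The authors deposited 1 table of FPKM per gene and library. Trimmomatic 0.36, HISAT2 2.2.1.0, Cufflinks 2.2.1 and HTSeq 0.9.1 are listed in the submitters' processing notes and the mm9 build in the methods, where STAR is named as the aligner and normalization with DESeq is mentioned. Which aligner made the table, and whether the FPKM values carry that normalization, is not given in the sources used here. No counts were used, so sequencing depth is known only in relative terms and no counting interval was given; the relative depth was read from the position of the lowest values in each library.

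Values were analysed as log2(FPKM + 1) after keeping genes with at least 1 FPKM in at least 3 of the 12 libraries (10675 of 21878). The package limma 3.58.1, run under R 4.3.3, fitted 1 model of 4 group means with a mean-variance trend in eBayes, and 3 contrasts were taken: BLM minus PBS in Atg5-/- cells, the same in wild-type cells, and the difference of these effects. Fold changes on this scale understate those of genes with low FPKM. P-values are 2-sided and adjusted by Benjamini-Hochberg over all genes tested. The fit was tested on simulated data with known changes.

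The comparison, the 42 gene lists and the rules were chosen with earlier results of these data known. Named genes were the RNA genes the study discusses, the 10 largest rises and falls (adjusted p under 0.05, ranges that do not overlap, mean of at least 10 FPKM in the higher group), up to 4 called members of each list with the largest changes or, where fewer than 2 were called, its 2 most abundant members, the genes of the sorting antigens, and the 5 genes of each sign with the smallest p for the difference between genotypes. Some genes that this rule names are not reported here. Genes outside this rule were named after their values were seen: Abca3, Ager, Ccnb1, Cdkn1a, Col6a2, Ctsd, Cxcl15, Cxcl17, Elovl5, Emp2, Fas, Gdf15, Gstp1, Hyou1, Ins2, Krt7, Krt8, Lbp, Mcm2, Me1, Nfe2l2, Npc2, Rrm1, Scd2, Sftpa1, Sftpb, Socs3 and Ugdh. Alternatives were another pseudocount, no filter, quantile normalization, median-ratio scaling, a fit of the compared groups alone, replicate number as a block, no trend, stricter thresholds and each replicate left out; a covariate for Y-linked transcripts and the removal of the libraries with Y-linked or islet transcripts were added after seeing the data. Gene positions are those of NCBIM37 (mm9). Promoter windows of GRCm38.p6 were taken from RefSeq by gene symbol, for 22 of 26 cell cycle genes and 13 of 18 p53 targets.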

Additional observations from a re-analysis of the deposited data

Results flagged for a closer look

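Of 122 named genes that were tested, 40 differed in their BLM effect between Atg5-/- and wild-type cells. The threshold was an adjusted p under 0.05 in the limma test of the difference, which 7.89% of all genes passed. Some genes were named for the smallest p in this same test and others after their values were seen, so the count says nothing about named genes as a set. The difference is given here as the Atg5-/- change minus the wild-type change in log2. Of the p53 targets, the difference was lower in Atg5-/- cells for Phlda3 (-3.50), Gdf15 (-4.10), Pmaip1 (-3.67), Cdkn1a (-2.27), Ccng1 (-1.59) and Aen (-1.33). It was higher in Atg5-/- cells for Bcan (2.64), Chia1 (2.13), Met (2.08), Fasn (1.53) and Abca3 (0.98). Of the glutathione genes it was lower for Gsto1 (-4.44), Gsta3 (-2.22), Gstm2 (-1.77), Gstm1 (-1.69), Gstp1 (-1.22) and Ugdh (-1.08). Among inflammatory genes it was lower for Isg15 (-5.36), Cfb (-4.87), Ifit3 (-4.38), Tnf (-3.58), Il1b (-3.32) and Plaur (-5.94). Among the sorting antigens and markers of other cell types it was lower for Ptprc (-2.38), Ly6a (-6.18), Ear1 (-3.83), Ear2 (-4.42), Dcn (-4.28), Col1a2 (-3.26), Cd2 (-4.29), Hcar2 (-3.57) and Scgb3a2 (-3.27). The other genes, all with a lower effect in Atg5-/- cells, were Ctsd (-1.69), Ctss (-4.58), Eno1 (-2.54), Hcar2 (-3.57), Krt79 (-3.78), Lipa (-3.35), Ncoa4 (-2.01), Nkx2-9 (-4.84), Plaur (-5.94) and Slc16a3 (-2.82). Summed markers of macrophages, club cells and fibroblasts were higher in Atg5-/- AT2-PBS than in any other group, and their part in these differences was not tested.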

How the results depend on the processing

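The count of 1962 genes called in Atg5-/- cells lay between 1579 and 2326 when each library was left out in turn, and the counts of 2156 for the difference between genotypes and 3031 for wild-type cells lay between 1833 and 2507 and between 2640 and 3179. With the adjusted p alone, the counts of 926, 842 and 1900 lay between 532 and 1095, 537 and 920, and 1028 and 1576 when a library was left out. The last count was 1028 without AT2-PBS replicate 2, 1187 without AT2-PBS replicate 3, 1055 without AT2-BLM replicate 2 and 1126 without AT2-BLM replicate 3. An adjusted p under 0.05 with the same fold left 923, 842 and 1856 genes in the 3 comparisons, and a fold of at least 2 left 914, 1328 and 982. With the replicate number as a block, 1959, 2166 and 3014 genes were called. Deviations of the Atg5-/- libraries that share a number correlated at 0.004, 0.227 and 0.083, and those with different numbers at -0.198 to 0.147. So few values cannot show whether the numbers pair the Atg5-/- libraries, and pairing was not checked among the wild-type libraries. In wild-type cells rises made up 72.6% of the calls, 46.9% with quantile normalization and 53% with median-ratio scaling, and quantile normalization moved the median difference between genotypes over all genes from -0.09 to 0.15. Of 96 named genes that were called, 75 stayed called whichever Atg5-/- library was left out. Without the PBS libraries with islet hormone transcripts, Isg15 turned to 0.68 and Ifit3 to 0.06; that fit has a single PBS library, which was assumed to vary like the other groups, as was the single BLM library in the fit without Y-linked transcripts. In these fits the medians were 1.09 and 0.38 for cell cycle genes, 0.55 and 0.28 for p53 targets, and 0.32 and 0.58 for fatty acid synthesis. The cause of these shifts was not tested. Without counts, the precision of low FPKM values is unknown.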
